A study of Mus musculus with 9 samples.

Results

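The Wnt ligands, their receptors, secreted antagonists, feedback inhibitors and lymphoid enhancer factors were examined as one gene group in bulk RNA from trabecular bone and marrow of aged and young mice. The group was chosen by gene name, by a rule that uses no measured values but was set with earlier results of these data known: all genes named as Wnt, Fzd, Sfrp, Dkk, Rspo, Nkd, Axin or Lrp5 and Lrp6, together with Sost, Sostdc1, Frzb, Wif1, Notum, Lef1 and Tcf7. This gave 54 of the 56980 genes of the deposited table, which fell into 7 roles. The study set 5 aged mice of 20 months against 4 young mice of 3 months, each labelled a biological replicate. All were wild type with no treatment besides age, and the design text gives them as female C57BL/6. The tissue is labelled bone marrow, while the extraction protocol names homogenised trabecular bone, so both marrow and bone cells could contribute. In such bulk samples fewer cells of a type and less RNA per cell cannot be told apart.

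Wnt proteins are secreted, lipid-modified signals that bind Frizzled receptors on the cell surface. When a Frizzled pairs with the co-receptor Lrp5 or Lrp6, β-catenin escapes destruction in the cytoplasm and enters the nucleus, where it acts with Lef1, Tcf7 and related factors. In bone this pathway favours bone formation, and osteocytes, the cells embedded in the mineral, hold it back by secreting sclerostin, the product of Sost.

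Transcripts that mark bone, marrow and other tissues were all present. Osteoblast markers summed to 683 to 2680 CPM (counts scaled to a common library size and composition) in aged libraries and 2403 to 6361 CPM in young libraries, and 0 of the 10 markers were at 0 throughout. Skeletal muscle markers summed to 3362 to 8735 CPM in aged and 3581 to 8449 CPM in young libraries. Library totals were 19804883 to 23548594 estimated counts. Aged 3, aged 4 and young 4 stood apart, with 5.76% to 6.7% of their counts in ribosomal protein genes, against 2.97% to 3.21% in the other 6. The Y-linked genes Ddx3y and Eif2s3y together had 2845 counts in aged 5 and 0 in aged 1 to 4, against 2800 to 3507 across all 4 young mice, which goes against the stated female sex in 5 libraries. Age and sex-linked transcripts therefore cannot be told apart except through aged 5. Values without these libraries are given beside many of the results they move, and the others in the closing section where the sign changed.

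Across the 54 members, transcript levels ran from 0 to a mean of 20.2 TPM (a relative transcript level corrected for gene length). Sost had the highest mean level, at 14.5 ± 10.9 TPM in aged and 27.4 ± 12.5 TPM in young libraries (SD, n = 5 and 4). Sfrp4, a secreted Frizzled-related antagonist, was next at 12.9 ± 3.92 TPM in aged and 22.2 ± 3.02 TPM in young libraries. Axin1, a scaffold of the β-catenin destruction complex, stood at 15.2 ± 8.68 and 15.5 ± 7.0 TPM in aged and young libraries. The TPM ranges of these 3 genes overlapped, so their order is not fixed by these data. Lrp5, Lrp6 and Wif1 followed. No ligand came near these levels: Wnt5b, the ligand with the highest mean, was at 0.818 ± 0.469 TPM in aged and 1.10 ± 0.60 TPM in young libraries. Wnt10b was nearly level with it, at 0.832 ± 0.609 TPM in aged and 1.06 ± 0.535 TPM in young libraries, so their order is not fixed either. The 19 ligands together summed to 5.04 ± 1.96 TPM in aged and 5.98 ± 2.47 TPM in young libraries, below the sum of the 7 Wnt-binding antagonists alone.

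**Figure D1:**
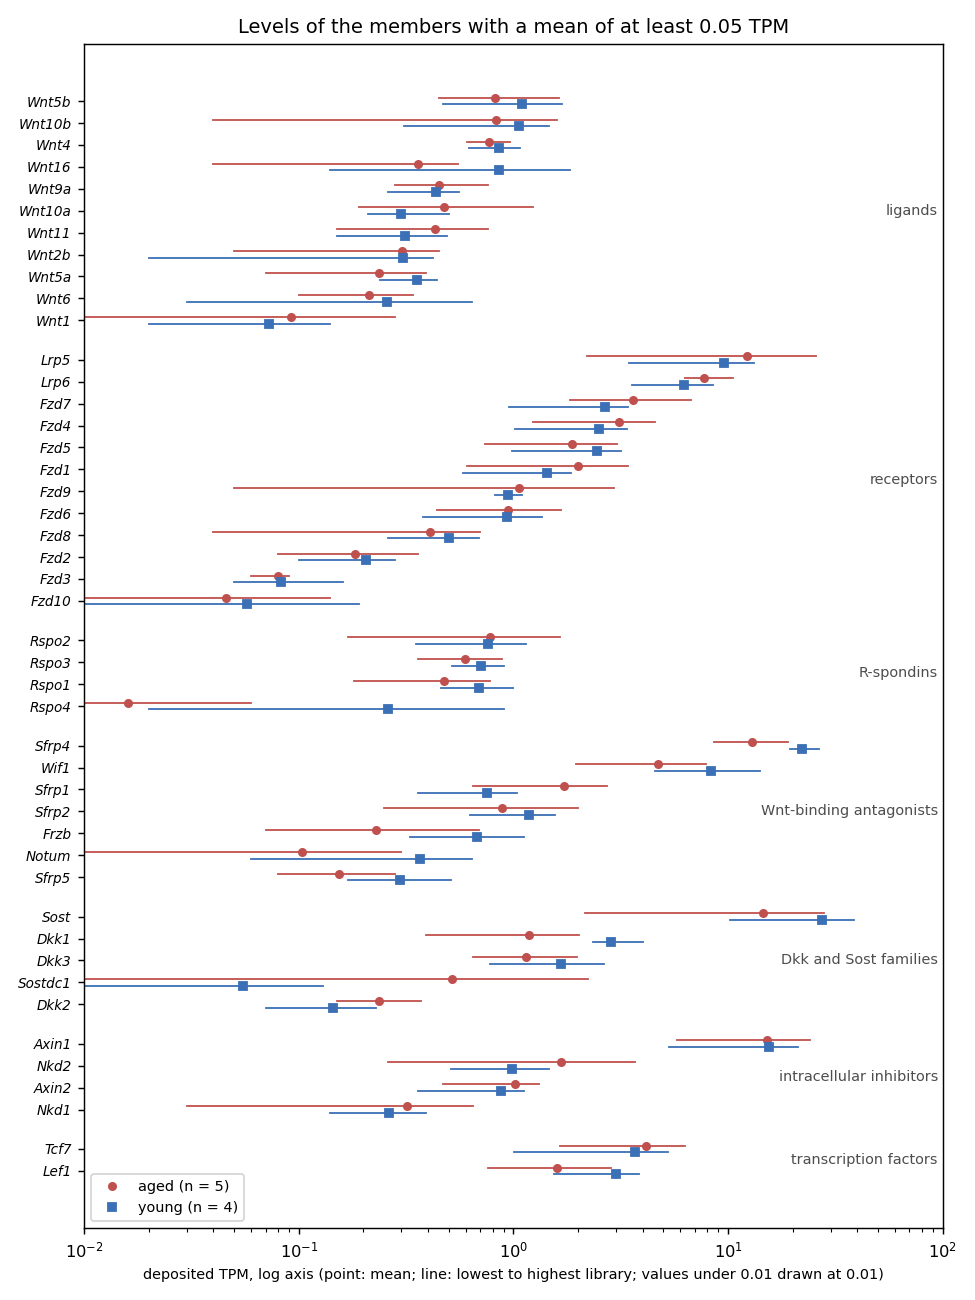
Deposited TPM (log axis) of the 45 members with a mean of at least 0.05 TPM, grouped by role; points are group means and lines run from the lowest to the highest library, aged (red circles) above young (blue squares). Sost, Sfrp4, Axin1, Lrp5 and Lrp6 lie at the high end and the Wnt ligands near or below 1 TPM, and the aged and young lines overlap for nearly all genes but are separate for Dkk1 and Sfrp4.

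No Wnt member passed the test for a difference between all aged and all young libraries. The edgeR quasi-likelihood test called 0 of the 37 members with enough counts to be tested, where it called 0% of all 16576 genes (threshold adjusted p under 0.05). DESeq2 also called 0 members, although it called 1.73% of the genes to which it gave an adjusted p, and limma-voom called 0 members and 0% of genes. The authors' deposited table gave 0.527% of all its genes an adjusted p under 0.05 but none of the members, of which Sfrp1 had the smallest, 0.0577. At an unadjusted edgeR p under 0.05 there was 1 member higher in aged libraries, against 4.15% of all genes, and there were 5 lower, against 4.64% (8.79% of all genes in either direction). The 5 were Dkk1, Sfrp4, Sost, Wnt5a and Wif1, and the 1 was Sfrp1. Of the 37 tested members 23 had a log2 fold change (aged over young) below 0, where 46.5% of all genes did, and the median was −0.17 for the members and 0.03 for all genes. These 37 had passed a count filter, and 17 members had too few counts.

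Aged 5 against young 1 to 3 is the comparison in which all libraries held Y-linked transcripts and none belonged to the 3 that stood apart. There edgeR called Sost, Lef1 and Sfrp4, all lower in aged 5, 3 of 43 members tested where 3.43% of all 18025 genes were called. That test was added after the data were seen and rests on 1 aged library, which is assumed to vary like the young ones. Pairs among young 1 to 3 differed by 16.7 to 19.9 chi-square units a gene, and pairs among aged 1, 2 and 5 by 115 to 139. The aged libraries thus varied more than the test assumes, and its calls cannot be relied on as differences with age. With a term for Y-linked transcripts over all 9 libraries, edgeR called 0 members and 1 of all 16576 genes. Each member had an adjusted p of 1 in that fit.

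Groups that did not overlap were found for 3 members. Dkk1 and Wnt5a were lower in every aged than in every young library, 2 of 37 members where 2.76% of all genes behaved so, and Sfrp1 was higher, 1 of 37 where 1.67% did. Scaled to library totals alone, Sfrp1 and Wnt5a overlapped and 1 member, Dkk1, remained, where 4.05% of all genes were separate in either direction. On the deposited TPM, a scale added after seeing the data, the groups were separate for Dkk1 and Sfrp4, where 2.49% of all genes were. The number of members with separate groups was 5 without aged 3, without young 3 or without young 4, where 8.99%, 5.65% and 12.9% of all genes were separate in turn. It was 9 of 37 among the 6 libraries without aged 3, aged 4 and young 4, where 30.7% of all genes were, so that this count is no higher than the background.

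**Figure D2:**
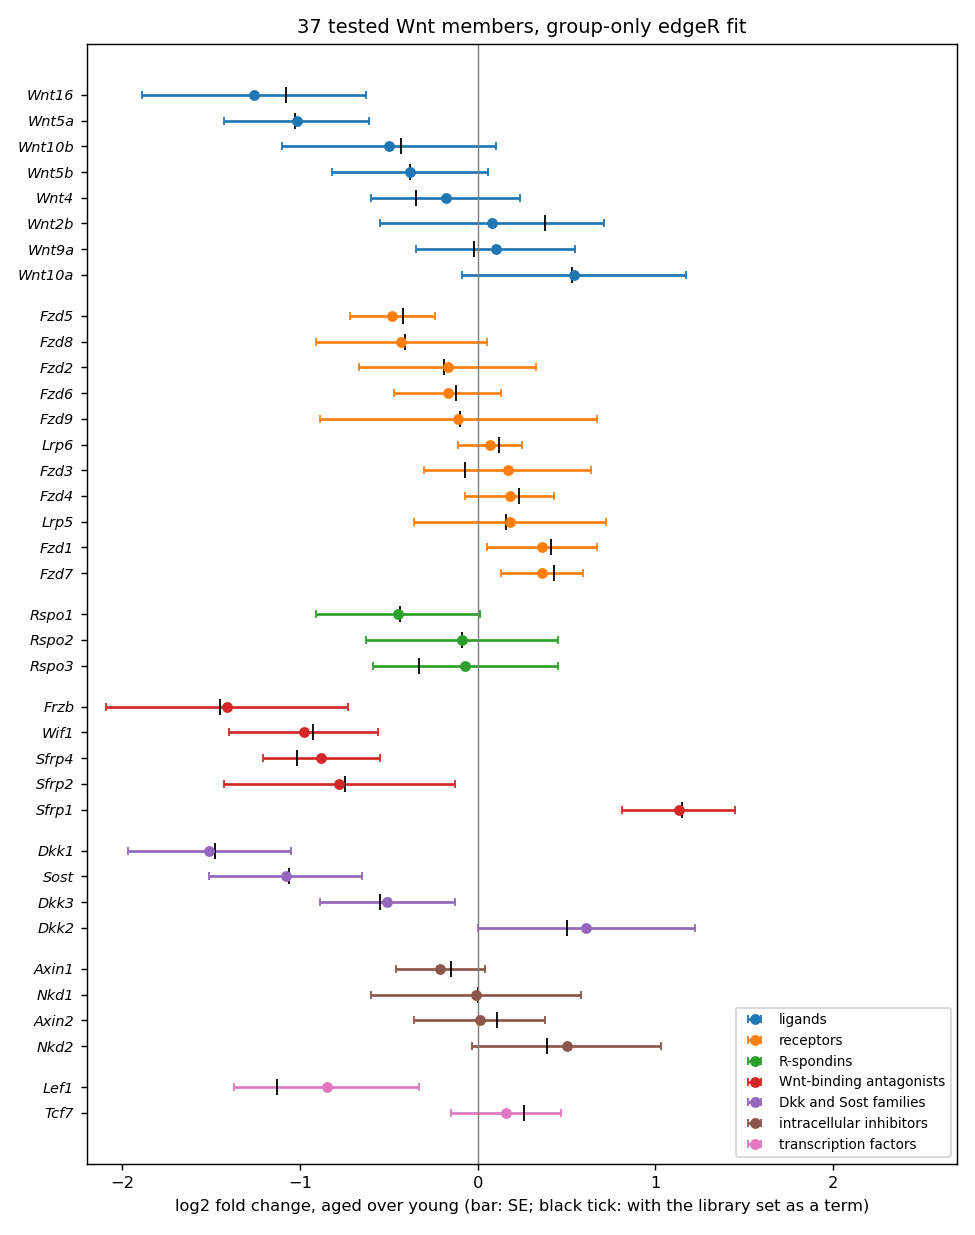
Log2 fold change (aged over young, group-only edgeR fit) of the 37 tested members by role, with bars of 1 SE; black ticks give the value when the fit also holds a term for the library set. Of the secreted antagonists Dkk1, Frzb, Sost, Wif1 and Sfrp4 lie between −1.51 and −0.88. Sfrp2 lies at −0.78, Dkk3 at −0.51, Dkk2 at 0.61 and Sfrp1 at 1.13, while the receptors lie between −0.48 and 0.36. Of the 37 members 0 passed the adjusted threshold.

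The Dkk and Sost families hold antagonists that bind the co-receptors Lrp5 and Lrp6, and Dkk3, which is not known to bind them. Of these 6 genes 4 were tested, with 3 log2 fold changes below 0 and a median of −0.79. Dkk1 (ENSMUSG00000024868) encodes a secreted protein that takes Lrp5 and Lrp6 away from Wnt. It had 1.04, 3.78, 1.47, 2.8 and 3.35 CPM in aged 1 to 5, against 7.11, 4.62, 4.49 and 12.2 CPM in young 1 to 4. The highest aged library, aged 2, lay just below the lowest young library, young 3, and young 4 stood well above the rest. The log2 fold change was −1.51 (SE 0.46, edgeR adjusted p = 0.342). It was −0.98 among the 6 libraries, −2.46 between aged 3 and 4 and young 4, −0.70 between aged 5 and young 1 to 3, and −1.48 when the fit held a library set term (edgeR adjusted p = 0.108).

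Sost (ENSMUSG00000001494) had 27.5, 44, 6.86, 16.2 and 19.6 CPM in aged 1 to 5, against 56.9, 43.3, 55.1 and 37.5 CPM in young 1 to 4. Aged 2 lay among the young libraries, and the other 4 aged libraries lay below all of them. Sost had a log2 fold change of −1.08 (SE 0.43, edgeR adjusted p = 0.489). It was −0.76 among the 6 libraries, −1.65 in the remaining 3 and −1.41 between aged 5 and young 1 to 3. Of the osteocyte markers other than Sost 4 of 5 also had log2 fold changes below 0, and 0 were at 0 throughout. Their sum ran from 49.2 to 90.7 CPM in aged and from 102 to 156 CPM in young libraries. Osteoblast markers had 10 of 10 below 0, but their sum did not follow Dkk1 library by library. Dkk1 was highest in young 4, at 12.2 CPM, where the osteoblast sum was 3899 CPM, against 6295 CPM in young 1. Per 100 CPM of osteocyte markers, Sost stood at 10.1 to 55.9 CPM in aged and 30.7 to 54.3 CPM in young libraries, so that these ratios overlapped. Per 100 CPM of osteoblast markers, Dkk1 stood at 0.0813 to 0.411 CPM in aged and 0.0727 to 0.313 CPM in young libraries. These ratios were chosen after the values were seen, and the part of bone cell number in either result was not tested.

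The promoters of 3 members are shown because their genes have separate roles in these results: Dkk1 for its separate groups, Sost for the highest level, and Axin2 as the usual readout of β-catenin activity, described further on. Each runs from 250 bases before to 50 bases after the start site, 5′ to 3′ on the gene's strand, from RefSeq on GRCm38.p6. Capitals mark TCF/LEF letters and RUNX letters, searched on both strands. TCF/LEF letters were CTTTGAA or the form CTTTGAT or the form CTTTGTA or the form CTTTGTT, and the RUNX letters were TGTGGT. No match overlapped another in the windows shown.
Dkk1: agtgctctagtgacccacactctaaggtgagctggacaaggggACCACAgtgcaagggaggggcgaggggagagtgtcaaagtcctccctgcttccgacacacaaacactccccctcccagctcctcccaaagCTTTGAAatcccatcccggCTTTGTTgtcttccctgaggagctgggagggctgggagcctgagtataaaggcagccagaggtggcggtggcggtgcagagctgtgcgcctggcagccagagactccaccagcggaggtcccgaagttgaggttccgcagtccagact
Sost: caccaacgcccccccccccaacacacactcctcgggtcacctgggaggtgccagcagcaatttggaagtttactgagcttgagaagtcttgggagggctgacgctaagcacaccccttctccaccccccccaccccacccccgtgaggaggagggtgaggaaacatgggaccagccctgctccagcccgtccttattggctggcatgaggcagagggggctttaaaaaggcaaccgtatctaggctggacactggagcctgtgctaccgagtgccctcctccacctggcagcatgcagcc
Axin2: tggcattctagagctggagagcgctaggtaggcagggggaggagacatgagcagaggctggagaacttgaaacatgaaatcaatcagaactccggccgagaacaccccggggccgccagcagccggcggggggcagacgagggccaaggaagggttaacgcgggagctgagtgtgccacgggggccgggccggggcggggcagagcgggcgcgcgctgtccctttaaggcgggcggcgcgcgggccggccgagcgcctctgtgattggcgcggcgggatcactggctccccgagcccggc
The Dkk1 window (chr19:30549447-30549746, minus strand) held 2 TCF/LEF matches, starting 117 and 98 bases before the start, and 1 RUNX match starting 207 bases before it. The windows of Sost (chr11:101966966-101967265, minus strand) and Axin2 (chr11:108920099-108920398, plus strand) held neither set of letters, which says only that the letters are not in these 300 bases. TCF/LEF letters were in the windows of 6 of the 35 members with a listed promoter (17.1%), where 16.9% of all 32851 listed promoters held them, some genes having more than 1. RUNX letters were in 2 of the 35, where 16.8% of all promoters held them.

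Other dickkopf genes had overlapping groups or too few counts. Dkk3, a divergent member of the family, had 2.89, 5.29, 4.23, 4.21 and 1.66 CPM in aged 1 to 5, against 5.36, 7.46, 3.02 and 4.96 CPM in young 1 to 4, and its groups overlapped (log2 fold change −0.51, SE 0.38, edgeR adjusted p = 0.894). For Dkk3 it was −0.68 among the 6 libraries, −0.18 in the remaining 3 and −1.68 between aged 5 and young 1 to 3. Dkk2 was at 0.909 ± 0.522 CPM in aged and 0.602 ± 0.389 CPM in young libraries, with a log2 fold change of 0.61 (SE 0.61). Dkk4 had 0 counts in every library, which allows up to 0.113 to 0.204 CPM in a library when 3 counts are taken as the limit, for counting error only. Sostdc1, the closest relative of Sost, had 66 of its 86 counts in 1 library, aged 2.

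Of the 7 antagonists that bind or modify Wnt proteins themselves, 5 were tested. Sfrp1 had a log2 fold change above 0 and Sfrp4, Wif1, Frzb and Sfrp2 below 0, with a median of −0.88. Sfrp1 (secreted Frizzled-related protein) had 7.2, 9.69, 8.58, 3.69 and 4.9 CPM in aged 1 to 5, against 3.5, 3.2, 2.77 and 2.99 CPM in young 1 to 4. The young libraries lay close together, and the lowest aged library, aged 4, stood just above the highest young library, young 1. The log2 fold change was 1.13 (SE 0.32, edgeR adjusted p = 0.321). It was 1.21 among the 6 libraries, 1.10 in the remaining 3, 0.62 between aged 5 and young 1 to 3, and 1.15 when the fit held a library set term (edgeR adjusted p = 0.0814). DESeq2 gave Sfrp1 an adjusted p of 0.0554, the smallest of any member in that test. Adipocyte markers had 7 of 7 log2 fold changes above 0, with 0 called. Their sums overlapped, at 265 to 717 CPM in aged and 238 to 510 CPM in young libraries. The sum did not follow Sfrp1 library by library. Aged 4 had the highest adipocyte sum, 717 CPM, but the lowest Sfrp1 of the aged libraries, 3.69 CPM. Fibroblast and tendon markers were mixed, with 4 of 8 above 0. The part of these cells in the Sfrp1 values was not tested.

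Sfrp4 had 12.3, 18.9, 33.3, 16.2 and 11 CPM in aged 1 to 5, against 24.3, 36.2, 30 and 44.6 CPM in young 1 to 4. Aged 3 lay among the young libraries, and the other 4 aged libraries lay below all young ones. Sfrp4 had a log2 fold change of −0.88 (SE 0.33, edgeR adjusted p = 0.466), and −1.02 when the fit held a library set term (edgeR adjusted p = 0.0684), the smallest adjusted p of a member in that fit. Without aged 3 it was −1.21 (edgeR adjusted p = 0.135), and between aged 5 and young 1 to 3 it was −1.47.

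Wif1 (Wnt inhibitory factor) had 4.14, 9.69, 8.03, 3.48 and 12.9 CPM in aged 1 to 5, against 21.4, 17.2, 8.61 and 13 CPM in young 1 to 4. Young 3 lay among the aged libraries, and aged 5 just below young 4. Wif1 had a log2 fold change of −0.98 (SE 0.42, edgeR adjusted p = 0.54), and −0.30 between aged 5 and young 1 to 3. Frzb, a secreted antagonist named for its frizzled-like domain and known in cartilage, was at 0.487 ± 0.363 CPM in aged and 1.28 ± 0.944 CPM in young libraries (log2 fold change −1.41, SE 0.68, edgeR adjusted p = 0.633). For Frzb it was −1.81 among the 6 libraries, −0.46 in the remaining 3 and −3.21 between aged 5 and young 1 to 3. Its highest value, 2.66 CPM, was in young 1, the library with the highest sum of chondrocyte markers (345 CPM). Young 2 had the next highest sum (264 CPM) but the lowest Frzb of the young libraries, 0.549 CPM. The 12 chondrocyte markers summed to 30.3 to 189 CPM in aged and 77.6 to 345 CPM in young libraries, and 6 of the 6 tested were below 0. The part of cartilage cells in the Frzb values was not tested.

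Sfrp5, another secreted Frizzled-related protein, had 73 counts over all libraries and was not tested. By level, the 7 Wnt-binding antagonists summed to 18.7, 26.2, 25.3, 14.4 and 18.7 TPM in aged 1 to 5, against 38.2, 39.5, 29.2 and 28.6 TPM in young 1 to 4. These sums did not overlap on the deposited TPM scale. Sfrp4 alone made 62.3% of this sum in aged and 65.7% in young libraries, so the sum largely follows that gene. On the scaled CPM Sfrp4 did overlap, with 33.3 CPM in aged 3 against 24.3 CPM in young 1. No background share was computed for such sums, so their separation is no support for a difference. The 6 genes of the Dkk and Sost families summed to 17.6 ± 12.5 TPM in aged and 32.1 ± 13.3 TPM in young libraries, with Sost making 82.5% and 85.3%, and here the groups overlapped.

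**Figure D3:**
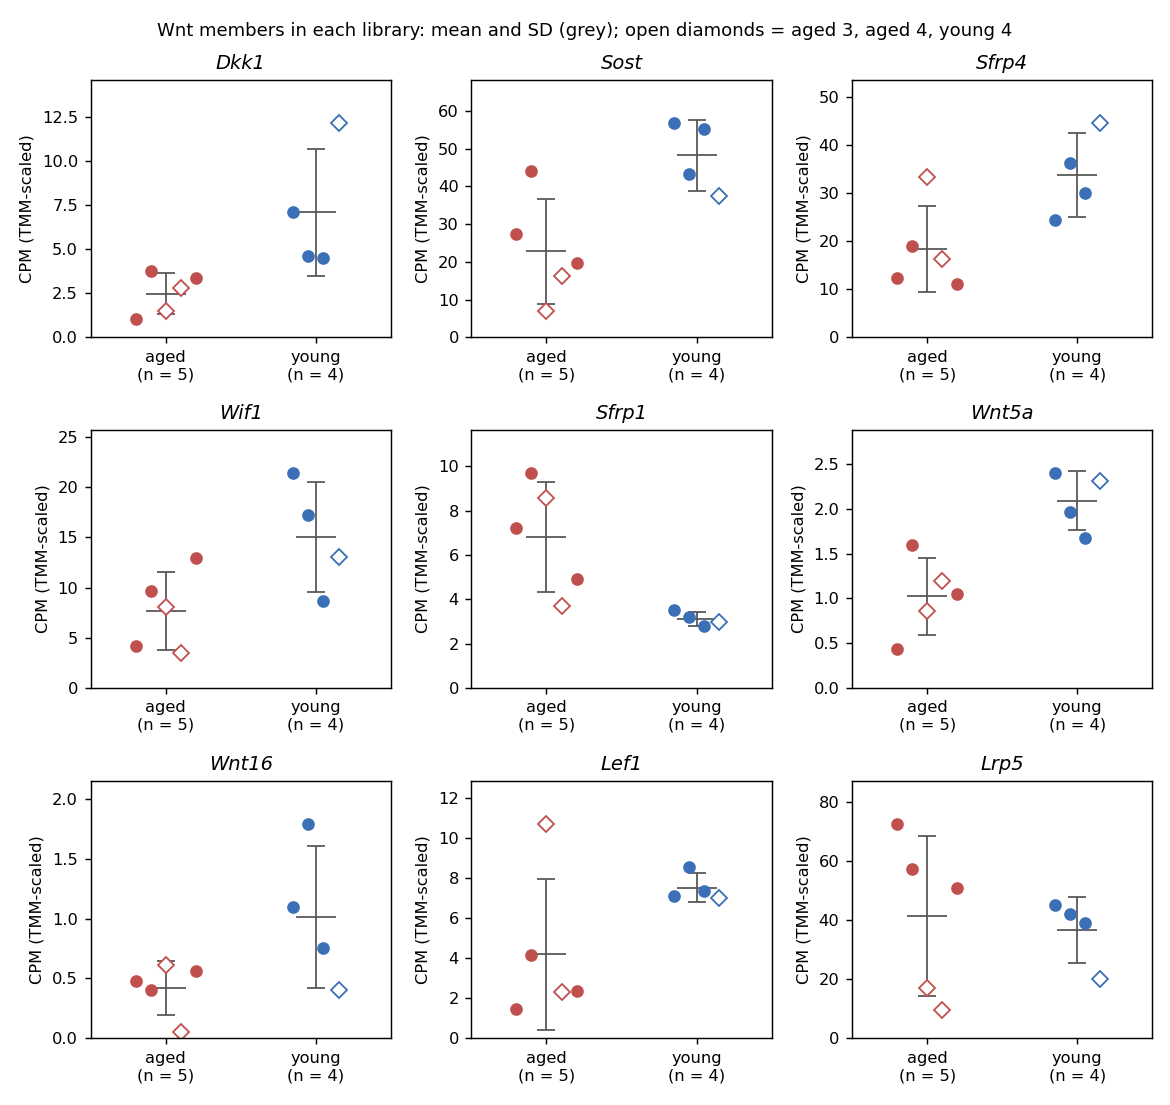
CPM of 9 members in each library, aged (red, left) and young (blue, right), with the mean and SD in grey and the libraries aged 3, aged 4 and young 4 as open diamonds; each panel has its own axis from 0. The groups are separate for Dkk1, Wnt5a and Sfrp1, aged 3 lies above the other aged libraries for Sfrp4 and Lef1, and the open diamonds of Lrp5 lie below all filled points.

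Wnt ligands were measured at low counts. Of the 19, 8 could be tested, with log2 fold changes of −1.26 to 0.54 and 5 of them below 0. Wnt5a, a ligand best known for signalling without β-catenin, had 0.431, 1.6, 0.858, 1.19 and 1.05 CPM in aged 1 to 5, against 2.4, 1.97, 1.68 and 2.31 CPM in young 1 to 4, from 10 to 63 counts in a library. Aged 2 lay just below young 3. The log2 fold change was −1.02 (SE 0.41, edgeR adjusted p = 0.49), −0.96 among the 6 libraries, −1.11 in the remaining 3 and −0.94 between aged 5 and young 1 to 3. On the deposited TPM scale Wnt5a overlapped, at 0.07 to 0.39 TPM in aged and 0.24 to 0.44 TPM in young libraries.

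Wnt16, a ligand of osteoblasts that is known to protect cortical bone, had 0.475, 0.4, 0.613, 0.0519 and 0.565 CPM in aged 1 to 5, against 1.1, 1.79, 0.756 and 0.407 CPM in young 1 to 4. Young 4 lay among the aged libraries, and aged 4 held 1 count (the range over libraries was 1 to 39). Wnt16 had a log2 fold change of −1.26 (SE 0.63, edgeR adjusted p = 0.66), with −1.31 among the 6 libraries and −0.22 in the remaining 3. Wnt5b had 0.733, 2.62, 1.47, 1.87 and 1.21 CPM in aged 1 to 5, against 2.55, 2.65, 1.18 and 1.83 CPM in young 1 to 4, with overlapping groups (log2 fold change −0.38, SE 0.44, edgeR adjusted p = 1). Among aged 3, aged 4 and young 4 it was −0.08 for Wnt5b. Wnt10b, a ligand known to promote bone formation, was at 1.56 ± 1.05 CPM in aged and 2.21 ± 0.587 CPM in young libraries (log2 fold change −0.50, SE 0.60). Wnt4 was at 3.33 ± 1.42 and 3.79 ± 1.66 CPM in aged and young libraries, and Wnt10a at 1.08 ± 0.845 and 0.742 ± 0.353 CPM.

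The other 11 ligands did not pass the count filter. Wnt7a and Wnt8b had 0 counts in every library, Wnt2, Wnt3 and Wnt9b had 1 count in all, Wnt8a had 2 and Wnt3a had 6. Wnt7b had 15 counts over the 9 libraries, Wnt1 36, Wnt6 52 and Wnt11 89. Of the ligands classically used to activate β-catenin, Wnt3a was thus near the limit of detection at this depth, and Wnt1 had at most 13 counts in a library.

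None of the tested receptors had separate groups. Of 12 receptors 11 were tested, with log2 fold changes of −0.48 to 0.36, 6 above and 5 below 0. Fzd5 had 10.4, 13.3, 8.64, 8.62 and 16.6 CPM in aged 1 to 5, against 17.2, 17, 16.7 and 13.3 CPM in young 1 to 4, and overlapped through young 4 (log2 fold change −0.48, SE 0.24, edgeR adjusted p = 0.661). Between aged 5 and young 1 to 3 it was −0.04 for Fzd5. Fzd7 had 19.2, 16.1, 13.7, 11.3 and 11.5 CPM in aged 1 to 5, against 12, 13.3, 11.1 and 8.28 CPM in young 1 to 4 (log2 fold change 0.36, SE 0.23, edgeR adjusted p = 0.822). Fzd10, with 28 counts in all, was the 1 receptor not tested. Fzd1 had 9.02, 9.74, 6.8, 3.32 and 6.89 CPM in aged 1 to 5, against 5.74, 6.68, 5.25 and 4.69 CPM in young 1 to 4, where aged 4 was the lowest of all 9 and the other 4 aged libraries lay above every young one (log2 fold change 0.36, SE 0.31, edgeR adjusted p = 0.957).

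The co-receptors differed in how they followed the library sets. Lrp6 had 50.8, 44.3, 43.9, 31.6 and 44.5 CPM in aged 1 to 5, against 42.6, 42.5, 46.3 and 33 CPM in young 1 to 4 (log2 fold change 0.07, SE 0.18, edgeR adjusted p = 1). Lrp5, whose inherited variants alter bone mass in humans, had 72.6, 57.2, 16.9, 9.45 and 50.9 CPM in aged 1 to 5, against 45.1, 42.2, 39.1 and 20.2 CPM in young 1 to 4 (log2 fold change 0.18, SE 0.54, edgeR adjusted p = 1). Within the 6 libraries every aged library was above every young one, and within aged 3, aged 4 and young 4 the aged libraries were below, a pattern of 1 of 37 members and 3.61% of all genes. Its log2 fold change was 0.52 in the first set and −0.55 in the second, and the difference between them was not tested.

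R-spondins, secreted proteins that strengthen Wnt signals by keeping Frizzled receptors at the surface, overlapped in each tested case. Rspo1 had 0.82, 0.311, 0.49, 0.467 and 0.829 CPM in aged 1 to 5, against 0.684, 0.961, 0.504 and 1.09 CPM in young 1 to 4 (log2 fold change −0.45, SE 0.46, edgeR adjusted p = 0.983). Rspo2 had 1.47, 4.14, 2.88, 0.675 and 1.69 CPM in aged 1 to 5, against 2.66, 0.915, 2.65 and 3.06 CPM in young 1 to 4 (log2 fold change −0.09, SE 0.54). Rspo3 had 0.863, 1.87, 4.05, 1.82 and 0.829 CPM in aged 1 to 5, against 2.09, 1.37, 1.43 and 2.99 CPM in young 1 to 4 (log2 fold change −0.07, SE 0.52). For Rspo2 and Rspo3 the spread within a group was much wider than the difference between groups. Rspo4 was not tested: 41 of its 51 counts were in young 1. Rspo4 was at 0.0863 and 0.0377 CPM in aged 1 and aged 5 and at 0 counts in the other aged libraries, against 1.56, 0.137, 0.042 and 0.204 CPM in young 1 to 4. Its log2 fold change in the authors' deposited table was −4.18, with an adjusted p of 0.14.

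Inhibitors inside the cell include Axin2 and Nkd1, which β-catenin itself induces and which are read as a sign of pathway activity. Axin2 had 1.81, 3.51, 1.47, 2.08 and 3.28 CPM in aged 1 to 5, against 2.21, 3.3, 2.52 and 1.63 CPM in young 1 to 4. The groups lay over each other, with a log2 fold change of 0.01 (SE 0.37, edgeR adjusted p = 1). The SE leaves room for changes of either sign. Nkd1 was at 0.675 ± 0.431 CPM in aged and 0.681 ± 0.222 CPM in young libraries. Axin1, which is not a target, had 49, 44.6, 24.9, 27.7 and 50.1 CPM in aged 1 to 5, against 51.9, 47.8, 46.1 and 36 CPM in young 1 to 4 (log2 fold change −0.21, SE 0.25, edgeR adjusted p = 1). Nkd2 had 8.76, 7.2, 1.72, 1.71 and 4.14 CPM in aged 1 to 5, against 3.04, 4.3, 2.1 and 3.87 CPM in young 1 to 4, the aged libraries lying on both sides of the young ones (log2 fold change 0.50, SE 0.53, edgeR adjusted p = 0.985). Nkd2 was at 1.10 among the 6 libraries and −1.11 in the remaining 3 on that log2 scale. Notum, a secreted enzyme that removes the lipid from Wnt proteins and is also a target, had 62 counts in all and was not tested.

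Lef1 and Tcf7, the nuclear partners of β-catenin, are expressed mainly by developing lymphocytes and T cells in marrow. Lef1 had 1.47, 4.14, 10.7, 2.29 and 2.34 CPM in aged 1 to 5, against 7.11, 8.56, 7.35 and 6.99 CPM in young 1 to 4. Aged 3 was the highest of all 9 libraries, and the other 4 aged libraries were below every young one. The log2 fold change was −0.85 (SE 0.52, edgeR adjusted p = 0.793). It was −1.55 without aged 3 (edgeR adjusted p = 0.135) and −1.52 among the 6 libraries. In the remaining 3 it was −0.04, and between aged 5 and young 1 to 3 it was −1.72.

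Markers of B cell progenitors moved with Lef1 library by library. The 9 markers summed to 56.3, 171, 394, 84.4 and 80.7 CPM in aged 1 to 5, against 280, 321, 270 and 270 CPM in young 1 to 4. Per 100 CPM of these markers Lef1 stood at 2.42 to 2.89 CPM in aged and 2.54 to 2.72 CPM in young libraries. The highest of these ratios was 1.19 times the lowest, whereas the Lef1 level itself varied 7.27-fold over the same 9 libraries. Of the markers 8 of 9 were below 0 and 0 were at 0 throughout. The ratio was computed after the values were seen, and the part of progenitor number in the Lef1 values was not tested. The sum of the markers, like Lef1, was highest in aged 3.

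Tcf7 had 5.78, 9.92, 8.76, 5.09 and 11.2 CPM in aged 1 to 5, against 8.21, 9.2, 7.18 and 4.55 CPM in young 1 to 4 (log2 fold change 0.16, SE 0.31, edgeR adjusted p = 1). T cell markers, of which 9 of 10 were above 0, summed to 63.8 to 151 CPM in aged and 66 to 90.4 CPM in young libraries. Per 100 CPM of T cell markers Tcf7 stood at 4.21 to 11.9 CPM in aged and 5.03 to 13.9 CPM in young libraries, a spread of 3.31-fold, wider than the 2.46-fold spread of Tcf7 itself.

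**Figure D4:**
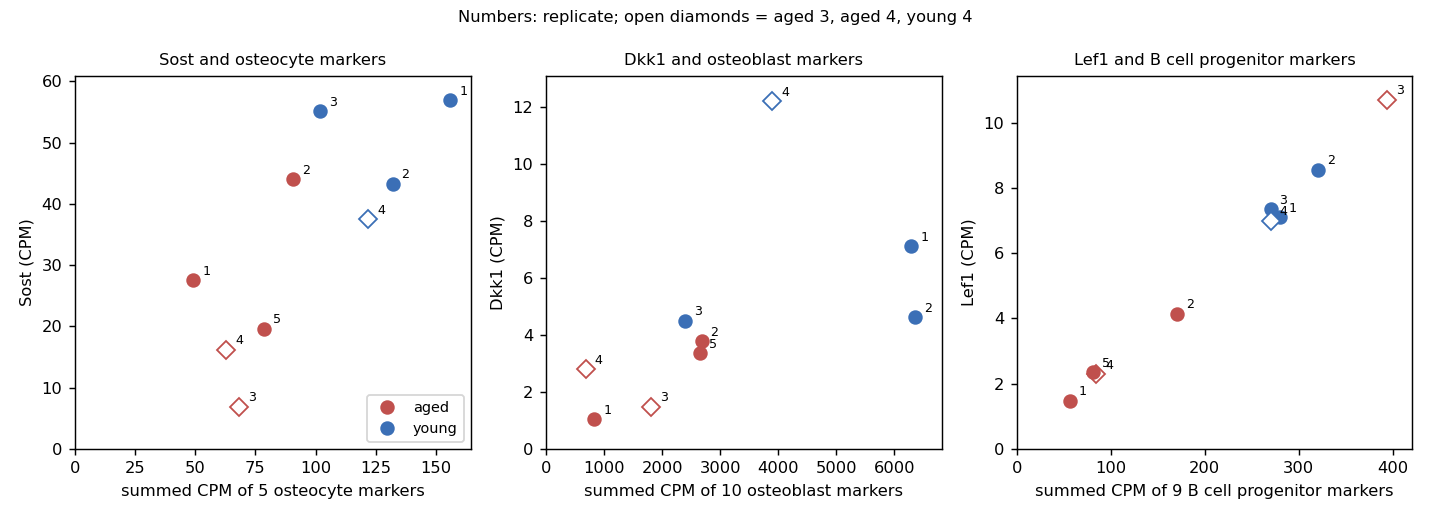
CPM of Sost, Dkk1 and Lef1 (vertical axes) against the summed CPM of osteocyte, osteoblast and B cell progenitor markers (horizontal axes), 1 point a library, aged red and young blue, with aged 3, aged 4 and young 4 as open diamonds and replicate numbers beside the points. Lef1 lies close to a line through the origin in all 9 libraries, at 2.42 to 2.89 CPM per 100 CPM of markers, while Sost and Dkk1 scatter.

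The library sets were separate for 4 members. Of the 37, 3 (Axin1, Fzd4 and Lrp5) were lower in aged 3, aged 4 and young 4 than in each of the other 6 libraries, where 20.9% of all genes were, and 1 (Wnt4) was higher, where 20% were. Within both sets the aged libraries lay below the young for Dkk1, Fzd5, Sfrp4 and Wnt5a, 4 of 37 where 9.62% of all genes did so, and above for Sfrp1, 1 of 37 where 5.68% did. Of the members 26 of 37 had a fold change of the same sign in both sets, where 63.7% of all genes did. When the fit held that term edgeR called 0 members and 1.92% of all genes.

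**Figure D5:**
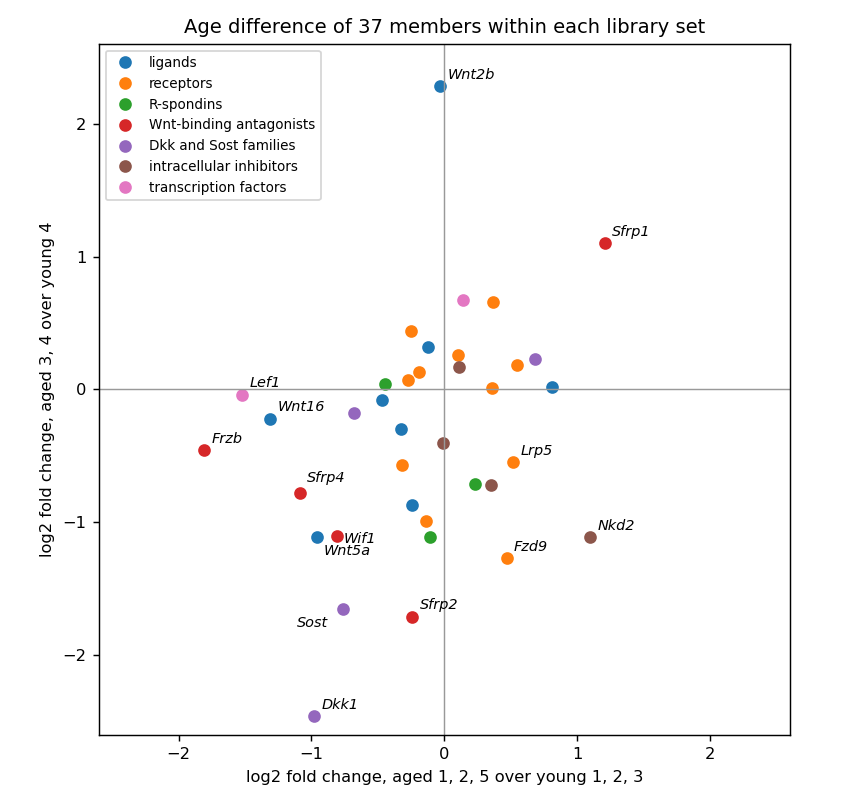
Log2 fold change (aged over young) of the 37 tested members within aged 1, 2 and 5 and young 1, 2 and 3 (horizontal) and within aged 3 and 4 and young 4 (vertical), coloured by role; the second set has 1 young library. Dkk1, Sost, Sfrp4, Wif1 and Wnt5a lie below 0 and Sfrp1 above 0 on both axes, whereas Lrp5, Nkd2 and Fzd9 lie on opposite sides.

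Genes of the pathway outside the group likewise gave 0 calls. Of 59 further genes for secretion, other receptors, cytoplasmic signalling, nuclear factors, planar polarity and targets, 57 were tested, with 0 called by edgeR, a median log2 fold change of −0.09, and 1 higher and 6 lower at an unadjusted p under 0.05 (against the same 4.15% and 4.64% of all genes). Groups were separate for 4 of the 57 (Vangl1, Btrc, Ror2 and Dkkl1), all lower in aged libraries, against 2.76% of all genes. The 1 higher was the β-catenin target Myc, at 65.9 ± 13.6 CPM in aged and 47.1 ± 7.63 CPM in young libraries (log2 fold change 0.49, edgeR adjusted p = 0.526). Tnfrsf11b, a target that encodes the osteoclast inhibitor osteoprotegerin, was at 1.7 ± 1.05 CPM in aged and 3.7 ± 1.48 CPM in young libraries (log2 fold change −1.12, edgeR adjusted p = 0.533). Myc and Tnfrsf11b were named after their values were seen. Vangl1, a planar cell polarity protein, had 4.31, 11, 13.2, 4.21 and 11.8 CPM in aged 1 to 5, against 21.1, 28.6, 26.5 and 24.4 CPM in young 1 to 4, with separate groups (log2 fold change −1.50, edgeR adjusted p = 0.268). Btrc, the ubiquitin ligase subunit that marks β-catenin for destruction, was at 34.5 ± 12.9 CPM in aged and 70.8 ± 7.29 CPM in young libraries, also separate (log2 fold change −1.04, edgeR adjusted p = 0.32). Erythroid markers, another group that was lower, summed to 1303 to 4823 CPM in aged and 6790 to 8027 CPM in young libraries, and their part in these values was not tested. Ror2, a receptor for Wnt5a, was at 0.144 ± 0.145 CPM in aged and 0.847 ± 0.38 CPM in young libraries (log2 fold change −2.44, edgeR adjusted p = 0.343). In aged 1 to 5 it had 0.0863, 0.356, 0, 0.0519 and 0.226 CPM, where 3 counts make 0.113 to 0.184 CPM. Its young libraries, at 0.546 to 1.36 CPM, carried it past the count filter, so its separate groups are no support for a difference. Dkkl1 was at 1.39 ± 0.426 CPM in aged and 2.62 ± 0.433 CPM in young libraries (edgeR adjusted p = 0.433), and Vangl2 at 4.9 ± 0.97 and 7.51 ± 1.64 CPM (edgeR adjusted p = 0.519). β-catenin itself, encoded by Ctnnb1, was at 284 ± 36.5 CPM in aged and 291 ± 11 CPM in young libraries (log2 fold change −0.04, edgeR adjusted p = 1). Wls, which carries Wnt proteins to the cell surface, was at 54 ± 15.4 CPM in aged and 52.9 ± 8.91 CPM in young libraries.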

How the data were processed

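One deposited table gave 9 libraries. The authors deposited estimated counts per gene, not scaled to a common total, and TPM per gene, per the file headers, and neither the quantifier nor the annotation is given in the sources used here. The submitters' processing notes name Bowtie 0.12.2 and mm8, with no role. The authors also deposited a log2 fold change and p-values per gene; the table is named for DESeq2, and its settings are not given. Estimated counts were rounded to whole numbers. The test was edgeR 4.0.16 (R 4.3.3), quasi-likelihood, two-sided, on group alone after TMM scaling and filterByExpr (minimum count 10, total 15) and Benjamini-Hochberg adjustment over 16576 genes. CPM use the same factors. Replicates are described as biological. The most alike, young 1 to 3, differed from each other beyond counting noise, at 16.7 to 19.9 chi-square units a gene. All other pairs within a group differed by 115 to 498. This measure cannot show whether libraries come from separate mice. DESeq2 1.42.0 and limma 3.58.1 (voom) were alternatives. The library sets (aged 3, aged 4 and young 4, and the other 6) were known from earlier results and lie on either side of the widest gap in ribosomal protein share.

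The members, roles and marker lists were chosen with earlier results of these data known. Per-library values are given for up to 3 members of each role with the smallest p, the highest TPM of each role, members with separate groups, and Sost, Dkk1, Axin2, Lef1, Tcf7, Lrp5 and Lrp6. Other values shown were chosen after they were seen. In GENCODE M21, 10 of the 54 members overlap an antisense gene (Axin2, Fzd5, Fzd6, Lef1, Notum, Rspo3, Sfrp2, Wnt11, Wnt5a and Wnt7b). Whether strand was used is not given, so their counts may include antisense reads. The code was also run on simulated counts whose means held no difference between the library sets. That run does not show how the group-only test performs on these data. Figures used Python 3.11.15 and matplotlib 3.10.9.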

Additional observations from a re-analysis of the deposited data

Results flagged for a closer look

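A single library stood far from the rest of its group for 7 of 92 member and group combinations. The limit used gives about 1 in 20 for independent, normally distributed values. These CPM include genes of few counts and the libraries that stood apart, so that rate may not hold here. Sostdc1 was at 2.94 CPM in aged 2 and at most 0.301 in the other aged libraries. Wnt11 was at 1.19 CPM in aged 4, with the next at 0.489. Rspo4 was at 1.56 CPM in young 1, with the next at 0.204. Fzd10 was at 0.504 CPM in young 3, with the next at 0.076. Young 4 was the outlying young library for Fzd9 (3.4 CPM, next 1.83), Fzd5 (13.3 CPM, next 16.7) and Wnt2b (0.136 CPM, next 1.01). Lrp5 was higher in every aged library within 1 library set and lower in every aged library within the other, with log2 fold changes of 0.52 and −0.55, a difference that was not tested. Of all genes 3.61% showed such an opposite pattern.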

How the results depend on the processing

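The median stayed below 0 in each alternative run (−0.34 to −0.06). The count of members called was 0 in each run with more than 1 aged library, where 0 to 319 of all genes were called. The run of aged 5 against young 1 to 3, added after seeing the data, is described above with its limits. The test within the 3-library set alone was also added after seeing the data, and it rests on 1 young library. The number of members with separate groups was 3 in the main run. It was 9 among the 6 libraries (30.7% of all genes), 1 with library totals (4.05%) and 2 on TPM (2.49%). On leaving out 1 library it was 3 to 5, and 5.65% to 12.9% of all genes were separate where it was 5. Where it was 3 or 4, 2.9% to 3.72% of all genes were separate with aged lower and 2.08% to 2.9% with aged higher. Of 22 named members 11 kept their sign throughout (Dkk1, Dkk3, Fzd1, Lef1, Sfrp1, Sfrp4, Sost, Wif1, Wnt16, Wnt5a and Wnt5b), and 32 of 548 alternative values changed sign, all among the other 11. With the Y-linked term the log2 fold change was 0.14 for Axin1, 0.05 for Fzd5 and 0.04 for Rspo1, and with both terms −0.08 for Fzd7, −0.02 for Nkd2 and 0.09 for Rspo1. Between aged 5 and young 1 to 3 it was 0.03 for Axin1, −0.09 for Fzd7 and 0.20 for Rspo1. In the 3-library set it was −0.55 for Lrp5, −1.11 for Nkd2 and 0.04 for Rspo3, and in the 6-library set 0.23 for Rspo2. With limma-voom it was −0.02 for Axin2 and −0.12 for Lrp5. Leaving out 1 library gave −0.16 to 0.20 for Axin2, −0.12 to 0.43 for Lrp5, −0.03 to 0.16 for Lrp6, −0.46 to 0.13 for Rspo2, −0.55 to 0.20 for Rspo3 and −0.01 to 0.29 for Tcf7. The causes were not tested. The sample labels give no pairing of mice by replicate number. Deviations of same-numbered libraries had correlations of 0.456, 0.554, −0.387 and 0.739 for replicates 1 to 4. Aged 3 and young 3 lie in different library sets and aged 4 and young 4 in the same one. These correlations therefore cannot show whether the numbers pair the mice. With the replicate block 0 members were called, where 13 of 16341 genes were, and the median was −0.23. In that run 3 members had separate groups, 2 lower and 1 higher, where 3.72% and 2.9% of all genes did. There Axin2 and Lrp5 were at −0.15 and −0.28. Ligands at a few counts a library limit what this depth can show.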
